A study of Mus musculus with 16 samples.

Results

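The 10 genes described here belong to the chemokine family and were followed across all 16 libraries of the study: Ccl2, Ccl12, Ccl3, Ccl4, Ccl5, Ccl6, Cxcl9, Cxcl10, Cxcl16 and Cx3cl1. They were taken from the table of raw counts by gene symbol, and all 10 were found among its 54532 entries. The libraries came from brain tissue of female mice aged 9 months and formed 4 groups of 4 libraries: mice with Ch25h (+/+) or without it (-/-), each with tau (Tau+) or not (Tau-). Ch25h encodes cholesterol 25-hydroxylase, an interferon-inducible enzyme that makes 25-hydroxycholesterol, and the series title places it between innate immune activation and tau pathology. Ch25h-/- mice carry no functional copy of that gene, and Tau+ and Tau- are the labels' words for tau status. The labels name neither the tau line, nor its promoter, nor how the deletion was made. They do not say whether the 4 libraries of a group came from 4 animals, so p-values measure the spread between these libraries, which may be technical.

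Chemokines are small proteins that draw leukocytes along a concentration gradient by way of G protein-coupled receptors. In the brain, microglia and astrocytes make most of the inflammatory members after interferon, tumour necrosis factor or pattern-recognition signals, and Ccl3, Ccl4 and Ccl6 are among the genes that activated microglia switch on. Cx3cl1, or fractalkine, stands apart: neurons make it constitutively, and its receptor Cx3cr1 sits on microglia.

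Total counts per library ran from 15530352 to 25602500, so that 3 counts, used here as the floor, amounted to 0.117 to 0.195 CPM (counts relative to library size, with sizes scaled by the trimmed mean of M values). Counting intervals and floors cover counting error only, while the 95% intervals of edgeR's log2 fold changes rest on the spread between libraries. Ch25h had 0 counts in all 8 Ch25h-/- libraries and 5 counts or more in every Ch25h+/+ library. Prnp, whose promoter drives some widely used tau transgenes, averaged 783 ± 41.7 CPM (SD, n = 4) in Ch25h+/+ Tau- and 1677 ± 182 CPM (SD, n = 4) in Ch25h+/+ Tau+, and 756 ± 53.8 and 1620 ± 175 CPM (SD, n = 4 each) in the Ch25h-/- pair. The sample labels name frontal cortex and the design text the hippocampus. Summed cortex markers lay at 599 to 822 CPM and summed hippocampus markers at 33.4 to 71.2 CPM, which without a reference tissue does not settle the tissue. One technical feature ran with genotype: CT010467.1, a ribosomal RNA entry, took 2289 to 5684 CPM, on unscaled totals, in all Ch25h-/- libraries but 1, 7 of 8, while the other 9 libraries held 111 to 475 CPM. The exception was Ch25h-/- Tau+ replicate 1, so Ch25h genotype and this class of rRNA-rich libraries can hardly be told apart.

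The chemokine genes lie in a few tight clusters. On GRCm38 (GENCODE M21), chr11:83525778-83664683 held Ccl5, Ccl9, Ccl6, Ccl3 and Ccl4 in that order within 138.9 kb, chr11:82035571-82103400 held Ccl2, Ccl7, Ccl11 and Ccl12 within 67.8 kb, and chr5:92321347-92348889 held Cxcl9 and Cxcl10 within 27.5 kb. Cxcl16 lies at chr11:70453983-70459984 on the minus strand and Cx3cl1 at chr8:94772009-94782427 on the plus strand. All 10 are annotated as protein-coding, and values below count reads over the whole gene as the authors' counter assigned them. The use of strand was not given in the sources used here, so reads over 2 overlaps cannot be assigned with certainty. Of the distinct 50-base words of the Cxcl16 transcripts, 16.9% were shared with Zmynd15, an antisense neighbour, and 3.59% of those of Cxcl10 were shared with Art3. Neither neighbour passed the test in the comparisons where the chemokine did: Zmynd15 averaged 0.843 ± 0.273 CPM in Ch25h+/+ Tau- and 1.21 ± 0.597 in Ch25h+/+ Tau+ (SD, n = 4, edgeR adjusted p = 0.799), and the log2 difference of Art3 was 0.20 (SE 0.20, edgeR adjusted p = 0.892). For Ch25h loss in Tau+ both pointed the same way as the chemokine, Zmynd15 at -0.84 (SE 0.41, unadjusted p = 0.0542, edgeR adjusted p = 0.219) beside -1.14 for Cxcl16, and Art3 at -0.33 (SE 0.20, adjusted p = 0.328) beside -1.96 for Cxcl10.

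Promoter sequences from RefSeq (GRCm38.p6) were matched for 6 of the 10 members. They are Ccl12, Ccl3, Ccl6, Cxcl9, Cxcl10 and Cx3cl1, and no window was matched for Ccl2, Ccl4, Ccl5 and Cxcl16. For 3 of them the 250 bases before the start are shown, because Cxcl10 and Cxcl9 are neighbours known as interferon targets and Ccl12 holds a TATA box close to its start. Each is written 5′ to 3′ on the strand of the gene, with matches to the searched motifs in capitals. Cxcl10 is at chr5:92348890-92349139 (minus strand), Cxcl9 at chr5:92328080-92328329 (minus strand) and Ccl12 at chr11:82101595-82101844 (plus strand).
Cxcl10: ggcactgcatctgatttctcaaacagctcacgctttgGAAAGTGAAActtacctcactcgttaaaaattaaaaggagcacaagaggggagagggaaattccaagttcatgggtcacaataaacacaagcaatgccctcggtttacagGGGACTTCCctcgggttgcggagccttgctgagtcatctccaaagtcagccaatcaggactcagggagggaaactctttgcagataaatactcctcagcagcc
Cxcl9: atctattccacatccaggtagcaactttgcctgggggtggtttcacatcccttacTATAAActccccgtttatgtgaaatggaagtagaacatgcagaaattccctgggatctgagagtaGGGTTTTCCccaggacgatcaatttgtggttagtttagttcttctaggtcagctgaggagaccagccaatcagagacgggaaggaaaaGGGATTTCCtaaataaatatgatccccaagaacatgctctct
Ccl12: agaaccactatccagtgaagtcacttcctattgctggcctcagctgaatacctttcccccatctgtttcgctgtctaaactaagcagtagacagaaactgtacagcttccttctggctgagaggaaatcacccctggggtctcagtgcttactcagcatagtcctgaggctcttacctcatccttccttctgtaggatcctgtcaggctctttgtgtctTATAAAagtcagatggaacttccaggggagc
The 4 motifs searched on both strands of the whole window of 300 bases were the core of an interferon-stimulated response element (GAAA, 2 bases of any kind and GAAA again), a kappaB site written GGGNNTTCC, a gamma-activated site written TTCNNNGAA, and TATAAA, a box of the core promoter. Among all 32851 windows, 3.44% held the first, 5.82% the second, 8.30% the third and 13.6% the fourth. The Cxcl10 window held GAAAGTGAAA beginning 213 bases before the start and GGGACTTCC beginning 103 bases before it. In the Cxcl9 window, GGGTTTTCC began 130 and GGGATTTCC 42 bases before the start, with TATAAA at 195. Ccl12 held TATAAA 31 bases before the start, Cx3cl1 held it 6 bases before its RefSeq start, and these letters were not in the windows of Ccl3 and Ccl6. No gamma-activated site pattern was found in the 6 windows. A match describes letters only.

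Enough counts for the test across all genes were found for 6 members (Ccl3, Ccl4, Ccl6, Cxcl10, Cxcl16 and Cx3cl1), while Ccl2, Ccl12, Ccl5 and Cxcl9 did not pass the low-count filter and are described by their counts. Ccl3, Ccl4 and Cxcl10 passed that filter mainly through Ch25h+/+ Tau+, where they were highest, so counts over the tested members describe them and support nothing further. Each difference below is a log2 fold change with its standard error from edgeR's quasi-likelihood test, with p-values adjusted over all 17736 genes by the Benjamini-Hochberg method.

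In mice with Ch25h, 4 of the 6 tested chemokine genes were higher with tau. Ccl4, Ccl6, Cxcl10 and Cxcl16 rose, from 2.99-fold for Cxcl16 to 15.2-fold for Ccl4, and no tested member passed in the downward direction. Over all genes tested, 1.56% passed in this comparison (higher, 1.47%). Libraries of the 2 groups did not overlap for 7 of the 10 members in the upward direction (Ccl2, Ccl12, Ccl3, Ccl4, Ccl6, Cxcl10 and Cxcl16), against 3.89% of all genes tested, and for 1 member, Cx3cl1, in the downward direction, against 1.97%. Of the 7, Ccl2 and Ccl12 were not among the genes tested. Summed over the 9 members other than Cx3cl1, the level lay between 3.12 and 4.75 CPM in Ch25h+/+ Tau- libraries and between 14.0 and 23.2 CPM in those of Ch25h+/+ Tau+. In bulk tissue, a change in the number of cells of a type and a change in RNA per cell cannot be told apart.

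In tau-positive mice, loss of Ch25h was accompanied by lower levels of the same members. Ccl4, Ccl6, Cxcl10 and Cxcl16 fell, to between 0.155 (Ccl4) and 0.454 (Cxcl16) of the level in Ch25h+/+ Tau+. Over all genes tested, 3.55% passed in this comparison (lower, 2.40%). Libraries did not overlap for 4 members (Ccl2, Ccl4, Ccl6 and Cxcl16), all lower, against 5.74% of all genes tested. Ccl2 was not among the genes tested. The summed level of the 9 members was 3.36 to 10.1 CPM in Ch25h-/- Tau+, and replicate 2 alone gave the 10.1 while the others lay at 3.36 to 4.49 CPM. This comparison and the tau comparison in Ch25h+/+ share the Ch25h+/+ Tau+ libraries, so the opposite signs of the 2 are not independent.

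Several settings ended the calls for Ch25h loss in Tau+. Library class (rRNA-rich or not) was 1 covariate tried. With it the log2 fold changes were -3.59 for Ccl4, -2.49 for Ccl6, -3.05 for Cxcl10 and -1.30 for Cxcl16. Ch25h-/- Tau+ alone held libraries of both classes. That fit thus set its only library that was not rRNA-rich, replicate 1, against the 4 Ch25h+/+ Tau+ libraries. The lost calls rest on that 1 library and do not measure what library class contributes. The same library lay below all 4 Ch25h+/+ Tau+ libraries for 8 of the 9 members other than Cx3cl1, and tied at 0 for Cxcl9. A fit of only the 8 libraries compared kept Ccl6 alone. Its log2 fold changes for the lost members were -2.70 (Ccl4), -1.97 (Cxcl10) and -1.14 (Cxcl16), with edgeR adjusted p of 0.0605, 0.126 and 0.0939. DESeq2 called Ccl6, Cxcl10 and Cxcl16 and gave Ccl3 and Ccl4 no adjusted p here, since its own filter on low means left them out. In the 16 fits that each left out 1 library, between 1 member (without Ch25h+/+ Tau+ replicate 4 or Ch25h-/- Tau+ replicate 3) and 5 members (without Ch25h-/- Tau+ replicate 2) passed for Ch25h loss, and 4 or 5 members passed for tau in Ch25h+/+.

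Without Ch25h, no member passed the test for tau (edgeR, 0 of 6 tested, against 0.0395% of all genes). Cxcl16 and Ccl4 had unadjusted p under 0.05, and DESeq2 and limma-voom called no member either. All 10 members overlapped between Ch25h-/- Tau- and Ch25h-/- Tau+, where 1.14% of genes lay apart upwards and 0.992% downwards. The test of the difference between the 2 tau effects, the interaction, passed for no member with edgeR, DESeq2 or limma-voom and for 0.0338% of all genes, with unadjusted p under 0.05 for Ccl6, Cxcl16 and Cx3cl1. A tau effect that differs between the genotypes was therefore not shown for any member.

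Among tau-negative mice, loss of Ch25h gave no call either (edgeR, 0 of 6 tested, against 1.03% of all genes, also 0 with DESeq2 and limma-voom). Cx3cl1 was the 1 member with an unadjusted p under 0.05 and the 1 without overlap, all lower, where 8.58% of all genes tested were. Mice with tau and without Ch25h set against Ch25h+/+ Tau- also gave no call (edgeR, 0 of 6, against 0.118% of all genes). There Ccl2 (not tested) and Cx3cl1 did not overlap, both lower, where 6.72% of all genes tested were, and Cx3cl1 had an unadjusted p under 0.05. DESeq2 called none, and limma-voom called Cx3cl1.

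**Figure D1:**
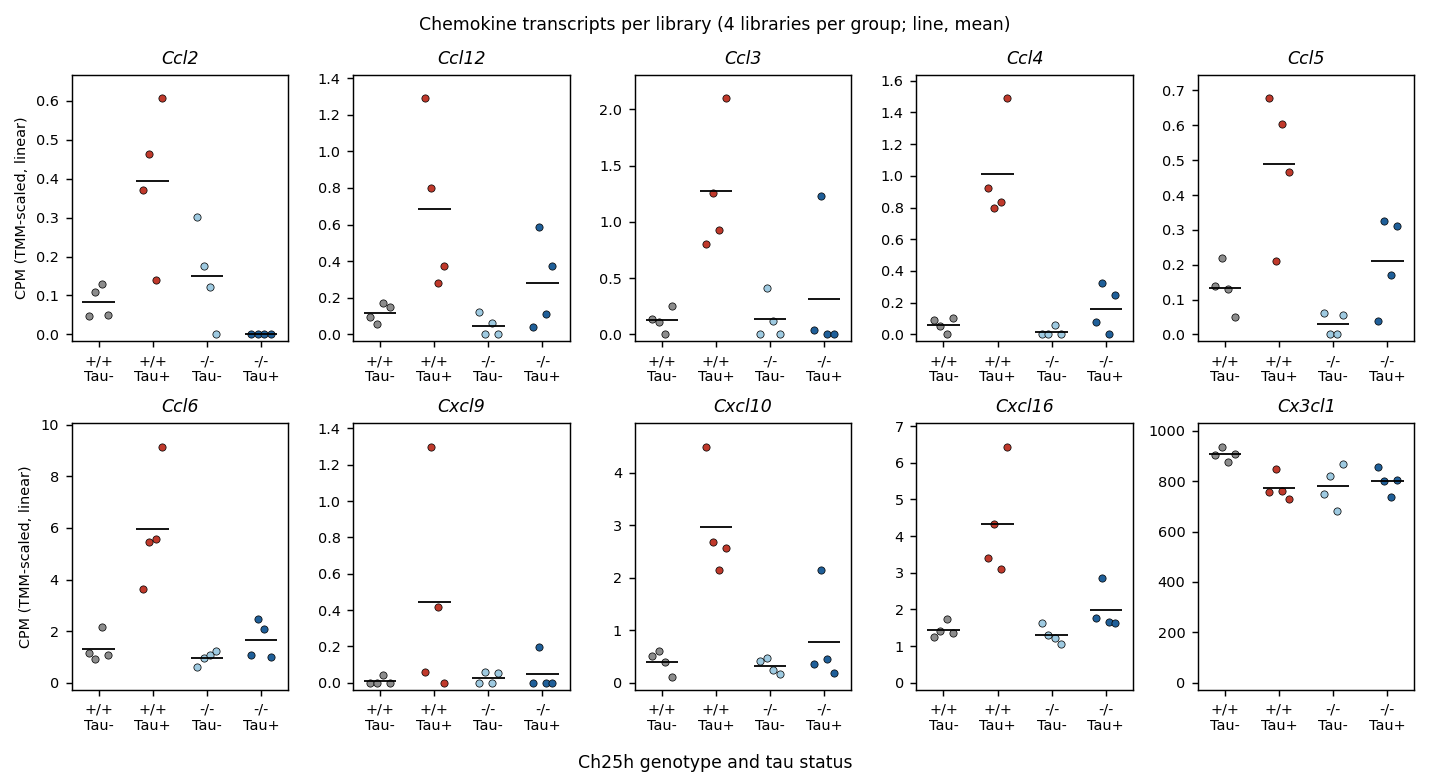
Level of each of the 10 chemokine genes in every library, in CPM on a linear axis that starts at 0 or just below it, by Ch25h genotype and tau status (points, 4 libraries per group; line, mean). Ch25h+/+ Tau+ has the highest mean for 9 members, 1 Ch25h-/- Tau+ library stands above the rest of its group for Ccl3, Cxcl10 and Cxcl16, and Cx3cl1 lies at 683 to 937 CPM throughout.

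Ccl2 and Ccl12 bind CCR2, the receptor by which monocytes leave blood for inflamed tissue, and both were near the floor. Ccl2 had 1, 2, 3 and 1 counts in the Ch25h+/+ Tau- libraries, 6, 11, 3 and 13 in Ch25h+/+ Tau+, 5, 3, 2 and 0 in Ch25h-/- Tau-, and 0 in all 4 of Ch25h-/- Tau+. As CPM the Ch25h+/+ Tau+ libraries lay above those of Ch25h+/+ Tau- and Ch25h-/- Tau+, although replicate 3, at 0.139 CPM, had no more counts than the highest library of Ch25h+/+ Tau- and lay under Ch25h-/- Tau- replicates 1 (0.301 CPM) and 2 (0.176 CPM). From 7 to 33 counts in all, the tau ratio in Ch25h+/+ was 4.72 (95% counting interval 2.05 to 12.6). Set against the 33 counts of Ch25h+/+ Tau+, the 0 counts in Ch25h-/- Tau+ put Ccl2 at least 9.89-fold lower, with 3 counts over the group as the floor. With no filter on low counts, edgeR gave Ccl2 an adjusted p of 0.00361 for that difference, 0.0559 for the interaction, and 0.349 and 0.501 for tau in Ch25h+/+ and in Ch25h-/-.

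Ccl12 had 2, 1, 4 and 3 counts in Ch25h+/+ Tau-, 21, 19, 6 and 8 in Ch25h+/+ Tau+, 2, 0, 1 and 0 in Ch25h-/- Tau-, and 1, 9, 2 and 6 in Ch25h-/- Tau+. Its tau ratio was 5.40 (2.72 to 11.9) in Ch25h+/+ and 5.48 (1.60 to 29.1, from 3 counts in Ch25h-/- Tau-) in Ch25h-/-. Ch25h loss in Tau+ gave Ccl12 a ratio of 0.371 (0.205 to 0.642), and with no filter edgeR called none of these for Ccl12 (adjusted p of 0.0730, 0.881 and 0.300). Single libraries weighed on these differences of mean CPM: 0.569 for tau in Ch25h+/+ became 0.366 and -0.408 for Ch25h loss in Tau+ became -0.206 without Ch25h+/+ Tau+ replicate 1, and 0.233 for tau in Ch25h-/- became 0.131 without Ch25h-/- Tau+ replicate 2.

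Ccl3, Ccl4 and Ccl5 are inflammatory CC chemokines that draw monocytes, macrophages and T cells. Ccl3 had 3, 2, 0 and 5 counts in Ch25h+/+ Tau-, 13, 30, 20 and 45 in Ch25h+/+ Tau+, 0, 7, 2 and 0 in Ch25h-/- Tau-, and 1, 19, 0 and 0 in Ch25h-/- Tau+. The tau-positive Ch25h+/+ libraries were all above the tau-negative ones, at 1.27 ± 0.585 against 0.125 ± 0.104 CPM (SD, n = 4 each). The difference of 3.33 (SE 0.97) did not pass in edgeR (adjusted p = 0.124). With all libraries kept, it passed with no filter on low counts (edgeR adjusted p = 0.0109) and with limma-voom (0.0191) and did not with DESeq2 (0.411), and it passed in a fit of only the 8 libraries compared (edgeR adjusted p = 0.0157). In Ch25h-/- Tau+, 1 library held most of the Ccl3 counts: replicate 2 gave 19 of the 20 counts of Ch25h-/- Tau+, 1.23 CPM against 0 to 0.0391 in the others. Without that library, the tau difference in Ch25h+/+ passed in the shared fit (adjusted p = 0.0184), as did Ch25h loss in Tau+ at -5.82 (adjusted p = 0.0116), which with all libraries was -2.14 (SE 0.88, adjusted p = 0.152) in edgeR and -3.82 (adjusted p = 0.0176) in limma-voom.

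Ccl4, the neighbour of Ccl3, gave the largest fold change of the tested members. It had 2, 1, 0 and 2 counts in Ch25h+/+ Tau-, 15, 19, 18 and 32 in Ch25h+/+ Tau+, 0, 0, 1 and 0 in Ch25h-/- Tau-, and 2, 5, 0 and 4 in Ch25h-/- Tau+. All 4 Ch25h+/+ Tau+ libraries exceeded every other library in the study. Ccl4 averaged 0.0620 ± 0.0459 CPM in Ch25h+/+ Tau- and 1.01 ± 0.325 CPM in Ch25h+/+ Tau+ (SD, n = 4 each). It rose with tau by 3.93 (SE 0.66, edgeR adjusted p = 0.00238), and this call held in all 16 fits that left out 1 library (adjusted p of 0.00142 to 0.0133). With Ch25h loss in Tau+ it fell to 0.163 ± 0.150 CPM (SD, n = 4), a difference of -2.69 (SE 0.58, adjusted p = 0.0209). That call was lost without Ch25h+/+ Tau+ replicate 4 (adjusted p = 0.0854) and without Ch25h-/- Tau+ replicate 3 (adjusted p = 0.0656). In Ch25h-/-, the Tau+ libraries had 11 counts and the Tau- libraries 1, a ratio of 10.1 with a counting interval of 1.46 to 433, and edgeR did not call it (adjusted p = 1.0, unadjusted 0.0206).

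Ccl5, made by T cells, natural killer cells and interferon-treated glia, had 3, 4, 3 and 1 counts in Ch25h+/+ Tau-, 11, 5, 13 and 10 in Ch25h+/+ Tau+, 1, 0, 0 and 1 in Ch25h-/- Tau-, and 1, 5, 3 and 5 in Ch25h-/- Tau+. Its ratio for tau was 3.55 (1.78 to 7.68) in Ch25h+/+, where 1 tau-positive library, replicate 2 at 0.210 CPM, lay under the highest tau-negative one at 0.219 CPM. In Ch25h-/- the ratio was 6.40 (1.47 to 58.0, from 2 counts in Tau-), and for Ch25h loss in Tau+ it was 0.399 (0.200 to 0.752). With no filter, edgeR called none of these for Ccl5 (adjusted p of 0.369, 0.881 and 0.379).

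Ccl6 is a macrophage chemokine of rodents and had the firmest values of the CC members. It measured 1.16, 0.930, 2.16 and 1.06 CPM in Ch25h+/+ Tau-, 3.63, 5.47, 5.58 and 9.15 in Ch25h+/+ Tau+, 0.602, 0.941, 1.08 and 1.23 in Ch25h-/- Tau-, and 1.06, 2.47, 2.10 and 0.999 in Ch25h-/- Tau+. Every Ch25h+/+ Tau+ library was above all 12 others, and the 3 remaining groups overlapped each other. Ccl6 rose with tau in Ch25h+/+ by 2.15 (SE 0.34, edgeR adjusted p = 0.00141), from 1.33 ± 0.563 to 5.96 ± 2.31 CPM (SD, n = 4 each), a 4.45-fold change. With Ch25h loss in Tau+ it fell by 1.87 (SE 0.34, adjusted p = 0.00723), to 1.66 ± 0.742 CPM (SD, n = 4). Both calls held in all 16 fits without 1 library, with adjusted p up to 0.00967 and 0.0354. The tau difference in Ch25h-/- was 0.75 (95% interval -0.05 to 1.55, adjusted p = 1.0), and the interaction was -1.40 (SE 0.51, unadjusted p = 0.0135, adjusted p = 0.852).

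**Figure D2:**
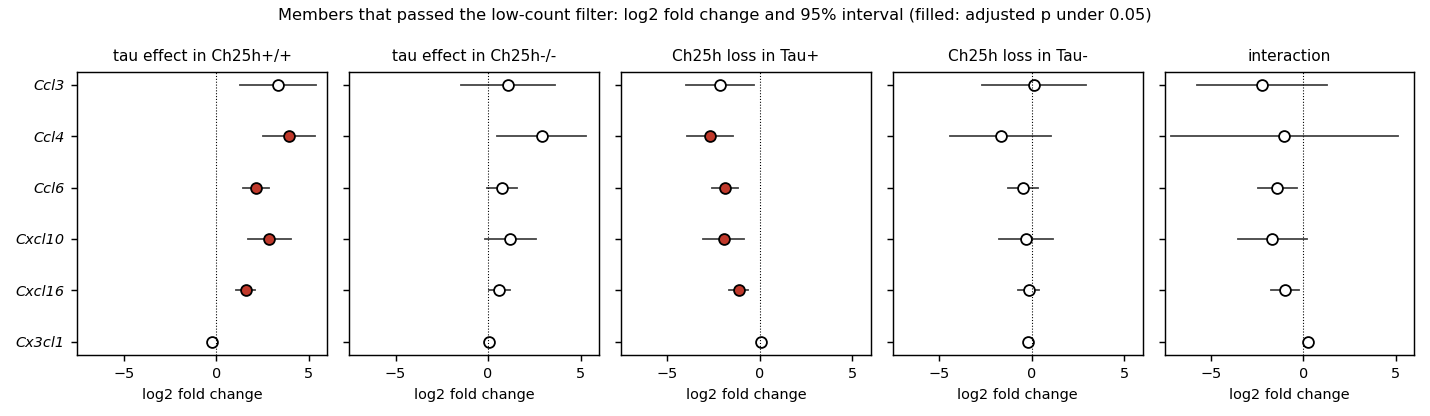
Log2 fold changes of the 6 tested chemokine genes in 5 comparisons (points, estimates; lines, approximate 95% intervals; filled, adjusted p under 0.05). Filled points stand for Ccl4, Ccl6, Cxcl10 and Cxcl16 under tau in Ch25h+/+ and under Ch25h loss in Tau+, and for no gene elsewhere; the Ccl4 intervals in comparisons that involve Ch25h-/- Tau- rest on 1 count in that group.

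Cxcl9 and Cxcl10 bind CXCR3 on activated T cells and natural killer cells, and interferons induce both. Cxcl9 had 0, 0, 1 and 0 counts in Ch25h+/+ Tau-, 1, 31, 9 and 0 in Ch25h+/+ Tau+, 0, 1, 0 and 1 in Ch25h-/- Tau-, and 0, 3, 0 and 0 in Ch25h-/- Tau+. Of its 41 counts in Ch25h+/+ Tau+, 31 came from replicate 2, and replicate 4 had 0, so the groups overlapped. Without replicate 2 the difference of mean CPM of Cxcl9 went from 0.435 to 0.149 for tau in Ch25h+/+ and from -0.397 to -0.111 for Ch25h loss in Tau+. The tau ratio in Ch25h+/+ was 41.0 with a counting interval of 6.96 to 1659, from 1 count in Ch25h+/+ Tau-. With no filter, edgeR gave adjusted p = 0.0298 for that comparison and 0.0817 for Ch25h loss in Tau+.

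Cxcl10 was the higher of the pair in every group. It measured 0.508, 0.602, 0.388 and 0.101 CPM in Ch25h+/+ Tau-, 4.50, 2.69, 2.14 and 2.57 in Ch25h+/+ Tau+, 0.422, 0.471, 0.241 and 0.167 in Ch25h-/- Tau-, and 0.352, 2.14, 0.455 and 0.187 in Ch25h-/- Tau+. The Ch25h+/+ Tau+ libraries stood above the rest except for Ch25h-/- Tau+ replicate 2, which equalled the lowest of them to 3 digits. Cxcl10 rose with tau in Ch25h+/+ by 2.87 (SE 0.56, edgeR adjusted p = 0.00826), from 0.400 ± 0.218 to 2.97 ± 1.04 CPM (SD, n = 4 each), which is 7.31-fold. With Ch25h loss in Tau+ it fell by 1.96 (SE 0.53, adjusted p = 0.0476), to 0.785 ± 0.913 CPM (SD, n = 4), and the difference was -3.13 without Ch25h-/- Tau+ replicate 2. This last call was the weakest of the 4: it was lost in 11 of the 16 fits without 1 library, with adjusted p from 0.00200 to 0.140. It held without Ch25h+/+ Tau+ replicate 2 or 3, Ch25h+/+ Tau- replicate 4, Ch25h-/- Tau+ replicate 2 or Ch25h-/- Tau- replicate 4. In Ch25h-/- the tau difference was 1.20 (95% interval -0.17 to 2.57, adjusted p = 1.0), and it was 0.05 without Ch25h-/- Tau+ replicate 2.

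Cxcl16 and Cx3cl1 are the 2 chemokines made as membrane-anchored proteins, from which the proteases Adam10 and Adam17 cut a soluble ligand. Cxcl16, the ligand of CXCR6 and a scavenger receptor of macrophages, measured 1.25, 1.42, 1.73 and 1.36 CPM in Ch25h+/+ Tau-, 3.39, 4.33, 3.11 and 6.44 in Ch25h+/+ Tau+, 1.63, 1.29, 1.21 and 1.06 in Ch25h-/- Tau-, and 1.76, 2.86, 1.65 and 1.62 in Ch25h-/- Tau+. Here too the Ch25h+/+ Tau+ libraries lay above all others, and the other 3 groups overlapped. It rose with tau in Ch25h+/+ by 1.58 (SE 0.25, edgeR adjusted p = 0.00153), from 1.44 ± 0.205 to 4.32 ± 1.51 CPM (SD, n = 4 each). With Ch25h loss in Tau+ it fell by 1.14 (SE 0.25, adjusted p = 0.0209), to 1.97 ± 0.594 CPM (SD, n = 4). The second call was lost without Ch25h+/+ Tau+ replicate 4 (adjusted p = 0.0884), Ch25h-/- Tau+ replicate 3 (0.0819) or Ch25h-/- Tau+ replicate 4 (0.0735), and the first held without any 1 library. The tau difference in Ch25h-/- was 0.60 (95% interval 0.03 to 1.16, unadjusted p = 0.0398, adjusted p = 1.0), and the interaction was -0.99 (SE 0.37, unadjusted p = 0.0152, adjusted p = 0.862).

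Cx3cl1 ran in another range and another order. It measured 902, 937, 876 and 907 CPM in Ch25h+/+ Tau-, 758, 847, 761 and 730 in Ch25h+/+ Tau+, 750, 821, 683 and 869 in Ch25h-/- Tau-, and 855, 802, 738 and 805 in Ch25h-/- Tau+. The Ch25h+/+ Tau- libraries were the highest 4 of the 16, and the other 3 groups overlapped. Its means were 905 ± 24.9, 774 ± 50.4, 781 ± 81.5 and 800 ± 48.3 CPM (SD, n = 4 each) in that order of groups. The log2 difference was -0.23 (SE 0.08, unadjusted p = 0.0106, edgeR adjusted p = 0.268) for tau in Ch25h+/+ and -0.21 (SE 0.08, unadjusted p = 0.0148, adjusted p = 0.140) for Ch25h loss in Tau-. Neither passed. Against the same Ch25h+/+ Tau- libraries, Ch25h-/- Tau+ differed by -0.18 (unadjusted p = 0.0372, adjusted p = 0.241), which limma-voom alone called (-0.20, adjusted p = 0.0476). For Ch25h loss in Tau+ the difference was 0.05 with a 95% interval of -0.12 to 0.21.

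Levels between genes were compared as CPM per kilobase of merged exons. Cx3cl1 averaged 230 ± 6.34, 197 ± 12.8, 199 ± 20.7 and 204 ± 12.3 (SD, n = 4 each) in the Ch25h+/+ groups, Tau- first, and then the Ch25h-/- groups. In Ch25h+/+ Tau+, where the other members peaked, Ccl6 led them with 3.32 ± 1.29, followed by Ccl3 with 1.66 ± 0.764, Ccl4 with 1.53 ± 0.492, Cxcl16 with 1.43 ± 0.50, Cxcl10 with 1.32 ± 0.462 and Ccl12 with 1.28 ± 0.864 (SD, n = 4 each). Those 5 that follow Ccl6 differed by less than their spread. Ccl5 with 0.510 ± 0.215, Ccl2 with 0.347 ± 0.172 and Cxcl9 with 0.148 ± 0.199 came last. In Ch25h+/+ Tau-, Ccl6 at 0.741 ± 0.314 and Cxcl16 at 0.477 ± 0.0679 headed the same 9 members, and Ccl12, Cxcl10, Ccl3, Ccl5, Ccl4, Ccl2 and Cxcl9 lay between 0.00358 and 0.220.

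Among receptors of the chemokine family, 1 gene passed. Of 22 receptor genes 10 had enough counts to be tested, and 1 rose with tau in Ch25h+/+ and fell with Ch25h loss in Tau+: Cx3cr1, the fractalkine receptor. It averaged 51.6 ± 5.83 CPM in Ch25h+/+ Tau- and 73.7 ± 13.9 CPM in Ch25h+/+ Tau+ (SD, n = 4 each), a difference of 0.51 (SE 0.11, edgeR adjusted p = 0.0229), although 1 or more libraries of the groups overlapped. For Ch25h loss in Tau+ it differed by -0.43 (SE 0.11, adjusted p = 0.0462), again with overlap between the groups. Over all genes tested, 1.47% passed upwards with tau in Ch25h+/+ and 2.40% downwards with Ch25h loss in Tau+. The median log2 fold change of the 10 receptors was 0.08 for tau in Ch25h+/+ and -0.06 for Ch25h loss in Tau+, beside -0.01 and 0.0044 over all genes. Chosen after its values were seen, Cxcr3 had 5, 18, 9 and 15 counts over its groups in the same order (Ch25h+/+ before Ch25h-/-, and Tau- before Tau+ within each).

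Of 28 other chemokine ligands 9 were tested, and Cxcl5, a neutrophil attractant, was the 1 that rose with tau in Ch25h+/+. Over all genes tested, 1.47% passed upwards there. Cxcl5 passed the low-count filter mainly through Ch25h+/+ Tau+, where it was highest, so that count supports nothing further. Cxcl5 went from 0.300 ± 0.220 to 1.63 ± 0.540 CPM (SD, n = 4 each), a difference of 2.42 (SE 0.51, edgeR adjusted p = 0.0154) with no overlap. With Ch25h loss in Tau+ it measured -1.66 (SE 0.48, adjusted p = 0.0620). No ligand of that list was called in the other comparisons, and its median was 0.11 for tau in Ch25h+/+ and -0.26 for Ch25h loss in Tau+. A further pair of monocyte attractants, named after their values were seen, was near the floor: Ccl7 had 2, 19, 8 and 3 counts and Ccl8 had 1, 21, 6 and 0 counts in that order, where 15 of the 21 came from Ch25h+/+ Tau+ replicate 3 and the other libraries of that group had 2 each. The sheddases Adam10 and Adam17 were both tested and gave no call in any of the 6 comparisons. Adam10 averaged 72.9 ± 4.99 CPM in Ch25h+/+ Tau- and 79.1 ± 8.14 CPM in Ch25h+/+ Tau+ (SD, n = 4 each).

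Part of the genes that induce chemokines, or pass the signal on, passed the test in the same 2 comparisons as the members. Of 19 such genes 16 were tested, and 3 rose with tau in Ch25h+/+: Irf8 by 1.06 (SE 0.18, edgeR adjusted p = 0.00225), Irf7 by 1.79 (SE 0.31, adjusted p = 0.00290) and Tnfrsf1a by 0.74 (SE 0.16, adjusted p = 0.0167). Irf7 and Irf8 are transcription factors of the interferon response and of myeloid cells, and Tnfrsf1a is a receptor of tumour necrosis factor. Irf7 went from 2.17 ± 0.551 to 7.53 ± 2.65 CPM and Irf8 from 6.29 ± 1.15 to 13.1 ± 2.40 CPM (SD, n = 4 each). Over all genes, 1.47% passed upwards in that comparison. With Ch25h loss in Tau+, where 2.40% of all genes passed downwards, 6 fell: Irf8 (-0.96, adjusted p = 0.00780), Tnfrsf1a (-0.76, adjusted p = 0.0162), the receptor genes Ifnar2 (-0.42, adjusted p = 0.0278) and Ifngr1 (-0.39, adjusted p = 0.0352), Irf1 (-0.50, adjusted p = 0.0370) and Irf7 (-1.15, adjusted p = 0.0424). The list's median log2 fold change was 0.27 and -0.40 in these 2 comparisons. In all, edgeR called 629 genes for Ch25h loss in Tau+, against 108 to 1691 in fits without 1 library. With the library class covariate that comparison rests on 1 Ch25h-/- Tau+ library, so its count is not set beside these. None of the 16 was called for tau in Ch25h-/-, for Ch25h loss in Tau- or for the interaction. The interferon genes Ifng and Ifnb1 had 0 counts in all 16 libraries, and the cytokine gene Tnf had 0, 22, 1 and 7 counts in the same order (these 3 were named after their values were seen).

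**Figure D3:**
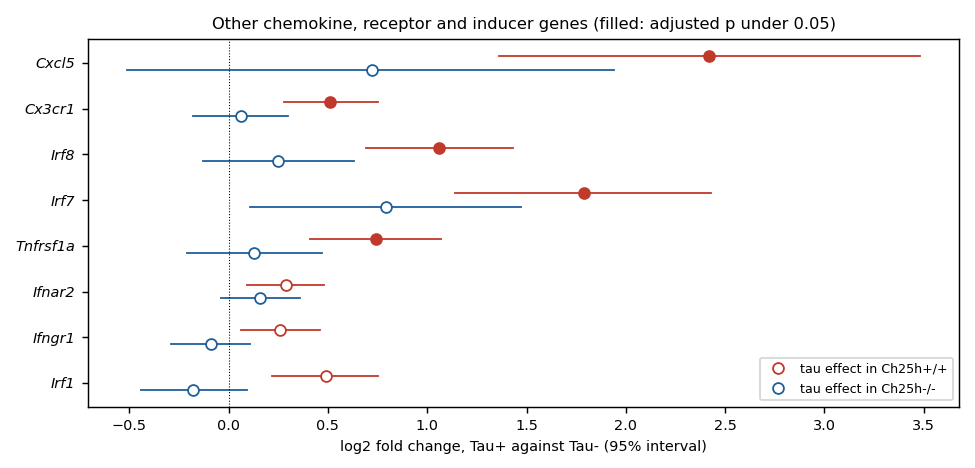
Log2 fold change with tau in Ch25h+/+ (red) and in Ch25h-/- (blue) for the other chemokine, receptor and inducer genes called in any comparison (points, estimates; lines, approximate 95% intervals; filled, adjusted p under 0.05). Cxcl5, Cx3cr1, Irf8, Irf7 and Tnfrsf1a are filled in Ch25h+/+, none is filled in Ch25h-/-, and the difference between the genotypes passed for none of them.

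The genes most like each member over all 16 libraries were found by Pearson correlation of log2(CPM + 0.5) among 15492 genes with a mean of at least 1 CPM, for the 4 members that reach that mean. For Ccl6 these were Irf8 (r = 0.94), Csf1 (0.93) and Ly86 (0.93), for Cxcl10 they were Irf7 (0.97), Cst7 (0.94) and Ifit3b (0.94), and for Cxcl16 they were Gfap (0.98), Cd9 (0.97) and Cd68 (0.96). Cx3cl1 had Fam81a, Abhd6 and Phf13, each at 0.88. The 16 points share their 4 groups, so differences between the groups enter these values. After the group means were taken out, Irf7 still led for Cxcl10 (0.88), and the same 3 genes led for Cxcl16, as Cd68 (0.88), Gfap (0.88) and Cd9 (0.85). For Ccl6 other genes took the place, Zfp273 (0.87), St8sia2 (0.87) and Sephs1 (0.83), and for Cx3cl1 they were Cnst, Tmem200c and Phf13 (0.89 each). These are the highest of 15492 genes over 16 libraries. High values can then arise by chance, and none was tested.

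Markers of the cells that make or answer chemokines moved with the groups to different degrees. Summed over 8 microglia markers, the level ranged over 313–338 CPM in Ch25h+/+ Tau-, 389–499 CPM with tau, 298–339 CPM in Ch25h-/- Tau- and 308–370 CPM with tau. The mean for tau against none in Ch25h+/+ was 1.36 times higher for these markers and 4.76 times higher for the 9 chemokines other than Cx3cl1. Summed over 5 astrocyte markers it ranged over 863–908, 1170–2282, 807–1097 and 931–1127 CPM in the same order, a ratio of 1.84, of which Gfap gave the most (139 ± 17.0 to 762 ± 374 CPM, SD, n = 4 each). Border macrophage markers summed to 5.79 to 14.1, 11.6 to 20.6, 7.11 to 16.4 and 8.12 to 14.8 CPM, a ratio of 1.59. Their part in the chemokine results was not tested.

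Markers of blood leukocytes were at a few CPM or less, and 5 red blood cell markers summed to 2.32 to 37.7 CPM over all libraries. The 8 T cell markers summed to 2.37–3.88, 2.57–4.25, 1.47–2.77 and 1.93–2.34 CPM in that order of groups, with Cd3d at 0 in all Ch25h-/- libraries and Cd8b1 and Cd2 at 0 in those of Ch25h-/- Tau-. The 4 natural killer cell markers summed to at most 0.139 CPM in Ch25h+/+ Tau-, with Ncr1 and Klre1 at 0, and to 0.185–0.325, 0.118–0.279 and 0.0568–0.235 CPM in the next groups of that order. The 7 monocyte and neutrophil markers summed to 0.453 to 1.89, 0.700 to 2.22, 0.941 to 2.41 and 0.509 to 2.53 CPM in the same order, with Ly6g at 0 in Ch25h+/+ Tau+ and Ch25h-/- Tau-. Single markers differed from these sums with tau in Ch25h+/+. Most of the T cell sum came from Cd4, which went from 1.64 ± 0.788 to 0.796 ± 0.113 CPM (SD, n = 4 each) with every tau-positive library lower, and from Lck, at 0.863 to 1.99 CPM without tau and 0.887 to 2.71 CPM with it. The other 6 T cell markers had more counts with tau, at few counts each: Cd3d 2 and 9, Cd3e 10 and 17, Cd3g 1 and 12, Cd8a 5 and 19, Cd8b1 1 and 7, and Cd2 2 and 6. Of the natural killer cell markers Klrb1c went from 2 to 17 counts, Klrd1 from 5 to 1, Ncr1 from 0 to 1 and Klre1 from 0 to 2, all near the floor. Ccr2, among the monocyte markers, lay at 0.164 to 0.370 CPM without tau and 0.372 to 0.467 CPM with it. It did not pass (log2 fold change 0.73, SE 0.65, edgeR adjusted p = 0.876). Of the rest of that list, S100a9 went from 28 to 25 counts and Ly6g from 2 to 0. More counts with tau were found for Ly6c2 (11 and 13), S100a8 (17 and 22), Plac8 (7 and 10) and Retnlg (2 and 6). The part of these cells in the levels of the CCR2 and CXCR3 ligands was not tested. Choroid plexus markers varied from 14.8 to 2727 CPM between libraries, within every group.

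**Figure D4:**
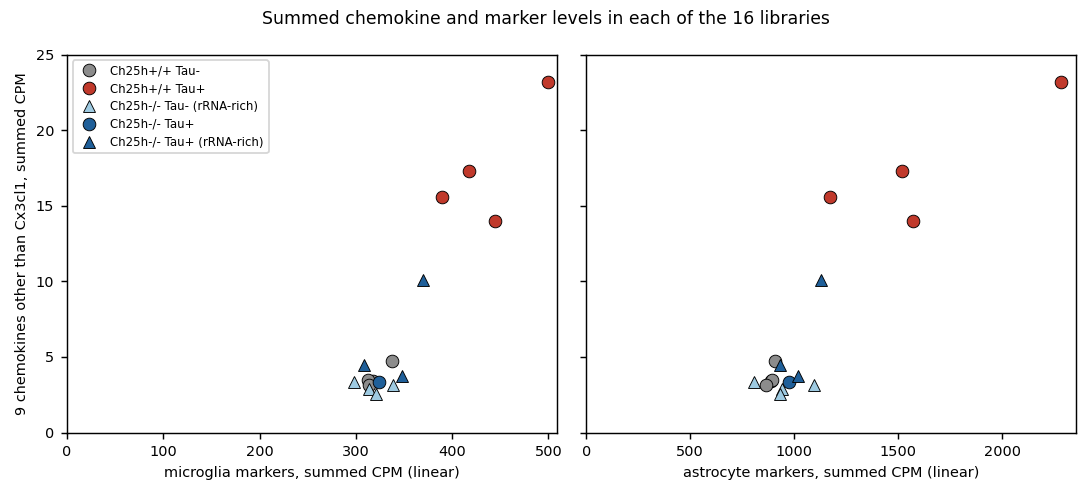
Summed CPM of the 9 chemokine genes other than Cx3cl1 (vertical axis) against the summed CPM of 8 microglia markers (left) and 5 astrocyte markers (right) in each of the 16 libraries (triangles, rRNA-rich libraries). The 4 Ch25h+/+ Tau+ libraries lie apart at 14.0 to 23.2 CPM, Ch25h-/- Tau+ replicate 2 lies at 10.1 CPM, and the others lie at 2.57 to 4.75 CPM.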

How the data were processed

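Bulk RNA-seq was analysed from 1 deposited table of counts per gene and library (16 libraries, 54532 entries), in which the authors' values are raw counts with no normalization, per the file headers and as checked on the values. Per the labels' protocols, a PureLink column kit gave the RNA and a SMARTer kit for mRNA the libraries. The submitters' processing notes list STAR 2.7 and GRCm38/mm10. The counting program, its annotation and its use of strand are not given in the sources used here. The table held 105 repeated symbols, none of them a member, and 0 pairs of libraries with identical values. Replicates were numbered by record order, which pairs nothing.

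Counts were filtered with filterByExpr over the 4 groups (17736 genes), scaled by TMM and tested with edgeR 4.0.16 in R 4.3.3 (quasi-likelihood F test, two-sided, 1 fit of 16 libraries, Benjamini-Hochberg over all genes, threshold 0.05). Standard errors were taken from the fold change and the F statistic, so they and the 95% intervals are approximate. Ratios of low counts carry exact binomial counting intervals. The test was checked on simulated counts.

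The members and gene lists were chosen with earlier results of these data known, and 1 gene of the receptor list and 1 of the inducer list are not reported here. Named genes are all 10 members, list genes past the threshold in any of 6 comparisons (at most 8 per list, by smallest p), and per member with a mean of at least 1 CPM the 3 most alike. Alternatives were DESeq2's size factors within edgeR, a filter of only 1 count in all, one of 50 counts on average, DESeq2 1.42.0, limma-voom with quality weights (limma 3.58.1), 1 surrogate variable (sva 3.50.0), library class (CT010467.1 over 1000 CPM), only the 8 libraries compared, CPM on total counts, and each library left out. Gene positions came from GENCODE M21, and overlaps with Zmynd15 and Art3 were looked up after the data were seen.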

Additional observations from a re-analysis of the deposited data

Results flagged for a closer look

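In 6 of the 40 combinations of a chemokine gene and a group of 4 libraries, 1 library stood so far above the others that its gap to the next, over the group's range, exceeded the 95% critical value of Dixon's test. Chance flags about 1 in 20 groups of normally distributed values, a rate that need not hold for CPM of low counts. It does not apply to 3 of the 6, where the other libraries were at 0 and any count meets the criterion.

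Ch25h-/- Tau+ replicate 2 gave 4 of these. It had 1.23 CPM of Ccl3 (19 counts), with the next library at 0.0391, 2.14 CPM of Cxcl10 (33 counts), with the next at 0.455, 2.86 CPM of Cxcl16 (44 counts), with the next at 1.76, and 0.195 CPM of Cxcl9 (3 counts), with the others at 0. That library was the highest of its group for 8 of the 10 members. Its summed monocyte and neutrophil markers, at 2.53 CPM (39 counts), were the highest of all 16 libraries, with the rest of Ch25h-/- Tau+ at 0.509 to 1.19 CPM. Its sums of microglia (370 CPM), astrocyte (1127 CPM), neuron (6732 CPM) and T cell markers (2.34 CPM) were also the highest of its group. Those of border macrophage (13.8 CPM), natural killer cell (0.0650 CPM), endothelial (204 CPM) and choroid plexus markers (58.3 CPM) were not. Its red blood cell sum (10.4 CPM) was the lowest of its group. The part of these cells in the chemokine values was not tested.

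The remaining 2 rest on 1 count each. Ch25h-/- Tau- replicate 3 had 0.0603 CPM of Ccl4, and Ch25h+/+ Tau- replicate 3 had 0.0431 CPM of Cxcl9, with 0 in the other libraries of the group.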

How the results depend on the processing

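No paired analysis was possible because the labels give no replicate numbers that groups share. The tau calls in Ch25h+/+ (Ccl4, Ccl6, Cxcl10 and Cxcl16) held wherever the gene was tested, also in all 16 fits without 1 library. Of the 4 calls for Ch25h loss in Tau+, 3 were lost with only the 8 libraries compared, and DESeq2 gave Ccl4 no adjusted p there. The library class covariate ended these calls in a fit where Ch25h-/- Tau+ rested on 1 library. Ccl3 was gained for tau in Ch25h+/+ with no filter, limma-voom and only the 8 libraries, and for Ch25h loss in Tau+ with limma-voom. Genes near 3 counts are limited by depth. The cause was not tested for any change listed here.

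Counts of members that moved were 1 for tau in Ch25h+/+ and 1 for Ch25h loss in Tau+ with a mean of at least 50 counts (fewer members tested), 0 with library class and 1 with only the 8 libraries compared for Ch25h loss in Tau+, and 1 with limma-voom for Ch25h-/- Tau+ against Ch25h+/+ Tau-. Without 1 library, members passing were 4 to 5 for tau in Ch25h+/+, 1 to 5 for Ch25h loss in Tau+ and 0 in the other 4 comparisons.

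Counts of all genes moved as follows. Library class could be estimated only within Ch25h-/- Tau+, from 1 library against the others, which limits the counts given for it. For tau in Ch25h+/+ (277 genes), DESeq2 called 424 and limma-voom 498, and fits without 1 library 160 to 299. For tau in Ch25h-/- (7), no filter gave 28, the mean of at least 50 counts 2 and DESeq2 14, and fits without 1 library 6 to 13. For Ch25h loss in Tau+ (629), DESeq2 called 1494, limma-voom 1883, library class 10 and only the 8 libraries 106, and fits without 1 library 108 to 1691. For Ch25h loss in Tau- (182), no filter gave 522, DESeq2 1124, limma-voom 1388, 1 surrogate variable 3, library class 0 and only the 8 libraries 1229, and fits without 1 library 3 to 1306. For the interaction (6), no filter gave 57, DESeq2 55 and library class 3, and fits without 1 library 0 to 22. For Ch25h-/- Tau+ against Ch25h+/+ Tau- (21), no filter gave 321, the mean of at least 50 counts 11, DESeq2 751, limma-voom 2104, 1 surrogate variable 10, library class 4 and only the 8 libraries 441, and fits without 1 library 6 to 985.

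Reversed log2 fold changes, none of them called, were these. Ccl3 for tau in Ch25h-/- became -0.05 with limma-voom and -2.59 without Ch25h-/- Tau+ replicate 2 (up to 2.68 without others). For Ch25h loss in Tau-, Ccl3 became -0.03 with limma-voom, -0.29 with 1 surrogate variable, -3.03 with library class, -0.33 without replicate 3 of Ch25h+/+ Tau- and -1.49 without replicate 2 of Ch25h-/- Tau-. Cx3cl1 for tau in Ch25h-/- became -0.01 without replicate 1 of Ch25h-/- Tau+ and -0.03 without replicate 3 of Ch25h-/- Tau- (up to 0.09 without others), and for Ch25h loss in Tau+ -0.0019 without Ch25h-/- Tau+ replicate 1 (up to 0.08). The Ccl4 interaction became 0.68 without Ch25h-/- Tau- replicate 3 (down to -1.57 without others). For Ch25h-/- Tau+ against Ch25h+/+ Tau-, Ccl3 became -0.08 with limma-voom, -1.49 with library class and -2.48 without Ch25h-/- Tau+ replicate 2 (up to 1.77 without others), Ccl6 became -0.34 with library class, and Cxcl10 became -0.18 with library class and -0.25 without Ch25h-/- Tau+ replicate 2 (up to 1.21).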
